A study of Oryza sativa with 3 samples.

Results

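The miRNA families miR1425, miR531, miR5795, miR6248 and miR440 of rice, 4 of them listed as found in rice only and miR531 as conserved in several species, were followed in the embryo during the first hours of seed imbibition. The members were all mature sequences that the deposited table of known miRNAs places in 1 of these families, each counted once. This gave 5 mature sequences, 1 per family, beside 54 other known sequences and 230 predicted ones, which are named OsmiR. All named sequences of both tables together are called the listed miRNAs. The only listed sequence of the miR531 family was osa-miR531c. All 5 sequences had reads in every library.

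The libraries came from de-hulled seeds of Oryza sativa cultivar Nipponbare that were kept in distilled water in the dark for 0, 12 or 24 h before the embryos were dissected by hand. The 0 h group is the dry seed, and all groups share the cultivar, the tissue and the handling. Hours after imbibition are written HAI. Each time point had 1 library, made from RNA that was mixed from several plates of seeds beforehand, so none of the differences below was checked in a replicate. The tables hold miRNAs only, so the labelled tissue could not be checked against marker genes.

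The libraries had 19203513, 22332607 and 17359816 genome-mapped reads at 0, 12 and 24 HAI, of which 285143, 634097 and 590212 belonged to the listed miRNAs. Levels are given as TPM, which here is the reads of a sequence per 1000000 genome-mapped reads of its library. A single read was worth 0.0521, 0.0448 and 0.0576 TPM in the 3 libraries. The ratio of 2 libraries is given with exact conditional 95% limits and, across the listed miRNAs, an exact conditional binomial test whose p was adjusted by the Benjamini-Hochberg method. What is compared in this way is a pair of libraries, not the time points as such. No molecular identifiers were described for the PCR-amplified reads, so limits and tests cover counting error only. The listed miRNAs took 1.48%, 2.84% and 3.40% of the genome-mapped reads at 0, 12 and 24 HAI. The choice of what a read count is divided by therefore moved every ratio that involves the dry embryo.

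A plant miRNA is cut from one arm of a hairpin transcript by a Dicer-like enzyme and guides an Argonaute protein to complementary transcripts, which are then cleaved or translated less. The usual product of DCL1 has 21 nt, a product of 22 nt can start the production of secondary small RNAs, and the first base influences which Argonaute takes the miRNA up. Young families, found in 1 or a few species, often come from hairpins that still resemble a gene or a repeat. miR1425 is a rice miRNA known to target transcripts of pentatricopeptide repeat proteins, among them relatives of the fertility restorer genes that act on mitochondrial transcripts.

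The mature sequences are shown as listed, written as DNA from 5′ to 3′. Bases 2 to 8, here called the seed, are in capitals because they were compared between listed sequences.
miR1425: tAGGATTCaatccttgctgct
miR531c: cTCGCCGGggctgcgtgccgcc
miR5795: aTGTCGAGgtcgagttcccggc
miR6248: tTTGAGGAtggaggtagtatc
miR440: aGTGTCTCctgatgatcgggaca

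No 2 members shared a seed. miR1425 and miR6248 had 21 nt and began with T, the first base of 30 of the other 37 known sequences of 21 to 23 nt. miR5795, with 22 nt, and miR440, with 23 nt, began with A, like 4 of those 37. miR531c, with 22 nt, began with C, which none of the 37 did. Its G+C content of 86.4% ranked 2 among the listed miRNAs, and that of miR5795, 63.6%, ranked 11. The G+C content was 52.2% for miR440 and 42.9% for both miR1425 and miR6248. The table places miR531 in class II, conserved in several species, and the other 4 families in class III, found in rice only. A length of 21 to 23 nt was thus met by all 5, and the rice-only class by all but miR531, whose class also holds members of the miR166 and miR164 families.

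Each member had 1 listed precursor in the MSU 7.0 genome, and the hairpins are shown with the mature sequence in capitals, since the arm and the bases around the mature sequence differ between members. The precursor of miR1425 lies on the plus strand at chr5:8862162-8862239 in an exon, that of miR531c on the plus strand at chr11:26930692-26930740 between genes, and that of miR5795 on the plus strand at chr7:7703247-7703366 between genes. The precursors of miR6248, at chr3:32572993-32573077, and miR440, at chr11:9164828-9164899, lie on the minus strand in introns.
miR1425 hairpin: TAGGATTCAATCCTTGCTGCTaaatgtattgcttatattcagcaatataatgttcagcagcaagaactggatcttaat
miR531c hairpin: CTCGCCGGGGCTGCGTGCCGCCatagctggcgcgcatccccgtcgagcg
miR5795 hairpin: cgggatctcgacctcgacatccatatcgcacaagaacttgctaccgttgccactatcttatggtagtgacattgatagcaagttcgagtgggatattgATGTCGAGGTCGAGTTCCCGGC
miR6248 hairpin: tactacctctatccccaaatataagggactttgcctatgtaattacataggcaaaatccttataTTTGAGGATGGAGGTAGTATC
miR440 hairpin: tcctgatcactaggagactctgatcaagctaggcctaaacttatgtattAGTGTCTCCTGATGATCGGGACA

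The mature sequence opened the listed hairpin on the 5p arm in miR1425 and miR531c and closed it on the 3p arm in the other 3. All 5 listed hairpins thus began or ended with the mature sequence, so the lengths below are those of the listed stretch. The hairpin of miR531c, at 49 nt, was the shortest of the 83 precursors of known miRNAs, whose median was 93 nt, and the hairpin of miR5795 had 120 nt. When the listed hairpins were folded with RNAfold, 18 of the 21 bases of miR1425 and of miR6248 were paired, and 19 bases in each of miR531c, miR5795 and miR440, which is 82.6% to 86.4% of the mature sequence. The median over the 83 precursors was 87.5%. The hairpins differed more over their whole length, where 87.1% of the bases of the miR6248 precursor were paired, rank 3 of 83, against 74.4% in the miR1425 precursor and a median of 75.3%. The MFEI, the listed folding energy per length and G+C content, was 1.73 for miR6248, the highest of the 83, and 0.895 for miR531c, rank 70, beside a median of 1.02. It was 1.31 for miR5795, 1.20 for miR1425 and 1.03 for miR440. No star strand is listed for any of the 5, as for 58 of the 59 known sequences.

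**Figure D1:**
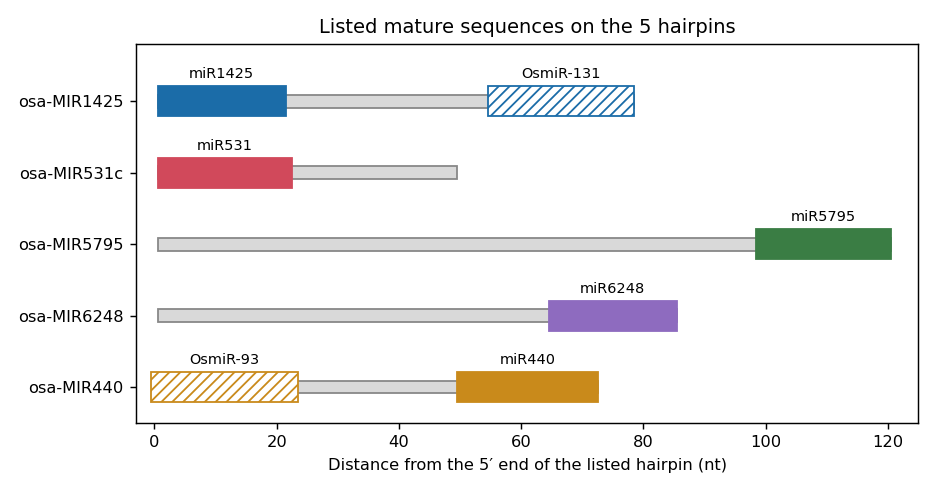
Position of the listed mature sequences on the 5 precursors, drawn to scale in nt from the 5′ end of each hairpin. Filled boxes are the members and hatched boxes are predicted sequences on the same locus, OsmiR-131 from position 55 to 78 on the miR1425 hairpin and OsmiR-93 from position 0, 1 nt outside the listed precursor, to 23 on the miR440 hairpin.

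The levels of the 5 sequences spanned more than 2 orders of magnitude. miR1425 held 97.5%, 94.8% and 97.1% of the members' reads at 0, 12 and 24 HAI. miR531c and miR5795 lay between 2.19 and 13.6 TPM in every library, above the median of the listed miRNAs, which was 0.833, 1.66 and 1.90 TPM at the 3 time points. miR440 lay just above that median at 0 HAI, and otherwise miR6248 and miR440 lay below it, with 7 to 33 reads in a library. All 5 had their highest TPM at 12 HAI, as did 100 of the listed miRNAs (34.6%), whereas 180 were highest at 24 HAI. The ratio of the 12 HAI value to the next highest had 95% limits above 1 only for miR1425 (1.11 to 1.19) and miR531c (2.53 to 4.305). The limits included 1 for miR5795 (0.888 to 1.76), miR6248 (0.635 to 1.99) and miR440 (0.625 to 2.41), so their peak was within counting error. On scales taken from the miRNA reads alone, which were their sum, the TMM factors of edgeR and the size factors of DESeq2, 2 of the 5, miR531c and miR6248, remained highest at 12 HAI and the other 3 were highest at 0 HAI. Of the listed miRNAs, 23.5%, 27.3% and 21.8% were highest at 12 HAI on these scales. No member was highest at 24 HAI under any of the 6 scales used.

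**Figure D2:**
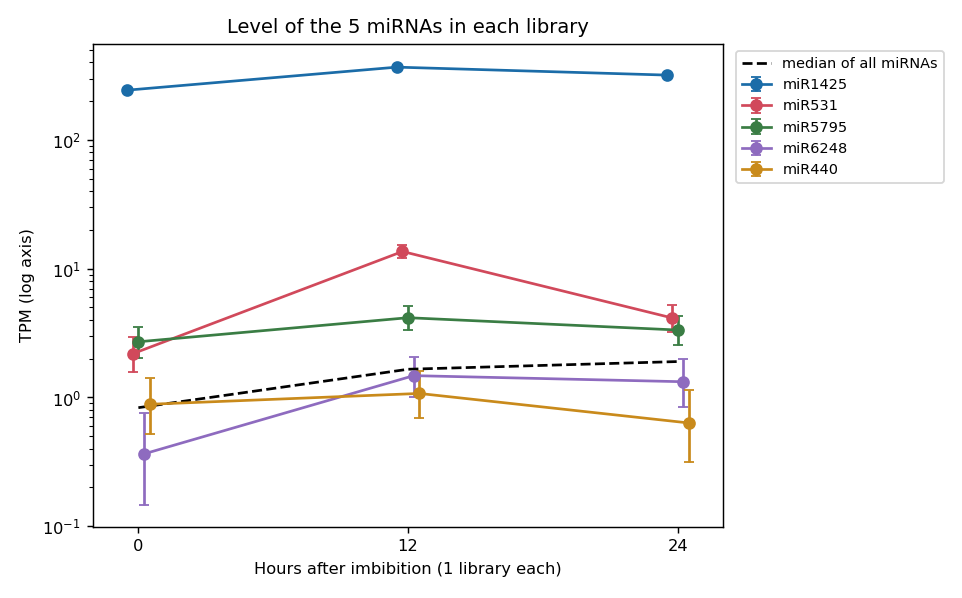
TPM of each member (log axis) against hours after imbibition, 1 library per time point, with exact Poisson 95% intervals of the read count as bars and the median of the listed miRNAs as a dashed line. miR1425 lies between 243.8 and 368.0 TPM and the other 4 between 0.365 and 13.6 TPM, and the 12 HAI value is the highest of each member in TPM but not, for miR1425, miR5795 and miR440, on scales set by the miRNA reads themselves. For miR5795, miR6248 and miR440 the 12 HAI value exceeds the next highest by no more than counting error.

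From 0 to 12 HAI, miR531c and miR6248 rose more than 2-fold in TPM, the fold by which the study called a change. Of the listed miRNAs, 113 (39.1%) passed 2-fold upward and 6 (2.08%) downward, so a share of 2 in 5 was near the background. By the exact test 4 of the 5 were higher at 12 HAI, all but miR440, as were 140 (48.6%) of the listed miRNAs tested. From 0 to 24 HAI only miR6248 passed 2-fold upward, beside 146 (50.5%) of all sequences, and no member passed it downward, beside 7 (2.42%). From 12 to 24 HAI only miR531c passed 2-fold, downward, beside 15 (5.19%) of all sequences, and none passed it upward, beside 40 (13.8%). By the exact test 3 of the 5, miR1425, miR531c and miR6248, were higher at 24 than at 0 HAI, beside 153 (52.9%) of all sequences, although only miR6248 kept that direction on the 3 scales of miRNA reads, where its call was lost. By the same test miR1425 and miR531c were lower at 24 than at 12 HAI, beside 24 (8.3%) of all sequences. The median ratio of the 5 was 1.54, 1.31 and 0.802 for 12 to 0, 24 to 0 and 24 to 12 HAI, against 1.78, 2.005 and 1.12 over the listed miRNAs.

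**Figure D3:**
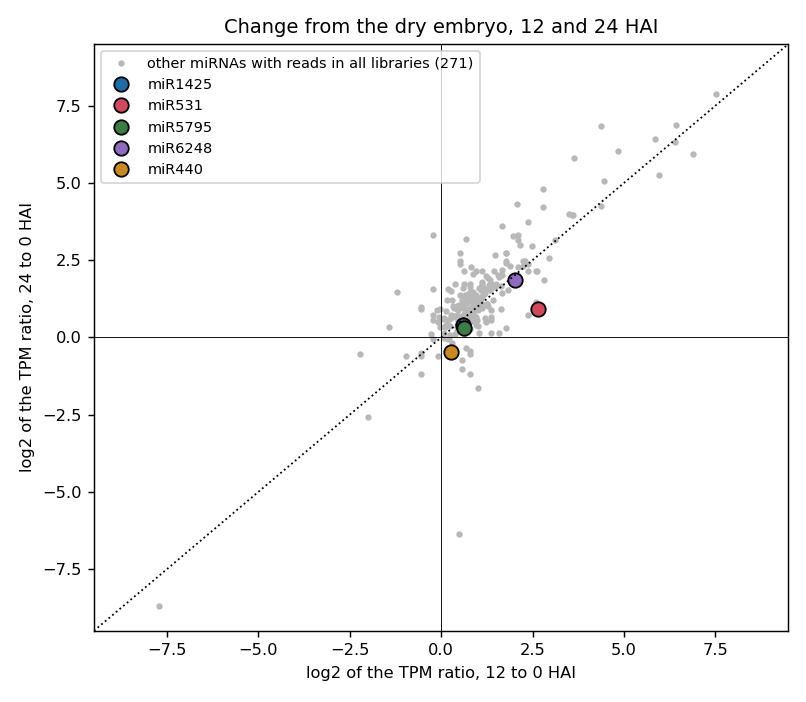
Log2 TPM ratio of 24 to 0 HAI against that of 12 to 0 HAI for the 5 members (large points) and the 271 other sequences with reads in all libraries (grey). All 5 members lie under the dotted line of equal ratios, where 24 HAI is lower than 12 HAI, with miR531 farthest from it at 2.64 and 0.92, and miR1425 and miR5795 almost covering each other. Of all listed miRNAs, 105 were lower at 24 than at 12 HAI in TPM, and of the members only miR1425 and miR531 were called lower by the exact test. On scales set by the miRNA reads, points shift down and left by a common amount, so that miR1425, miR5795 and, at 12 HAI, miR440 and, at 24 HAI, miR531 fall below 0.

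miR1425 was the most abundant of the 5 by far and one of the better covered miRNAs of the series, ranking 14, 13 and 13 among the listed miRNAs at 0, 12 and 24 HAI. It had 4681 reads at 0 HAI (243.8 TPM), 8218 at 12 HAI (368.0 TPM) and 5542 at 24 HAI (319.2 TPM). It was thus lowest in the dry embryo and highest at 12 HAI, and the 3 Poisson intervals did not overlap. The TPM ratio of 12 to 0 HAI was 1.51 (limits 1.46 to 1.57, adjusted p = 2.74e-114, exact conditional binomial test), that of 24 to 0 HAI was 1.31 (1.26 to 1.36, adjusted p = 2.24e-41, same exact test) and that of 24 to 12 HAI was 0.868 (0.838 to 0.898, adjusted p = 2.66e-15, same exact test).

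The rise of miR1425 was smaller than that of most sequences. Its ratio was higher than that of 29.8% of all sequences for 12 to 0 HAI and 17.3% for 24 to 0 HAI. Relative to the median sequence it stood at 0.846 and 0.653. Its share of all miRNA reads fell from 1.64% at 0 HAI to 1.30% at 12 HAI and 0.939% at 24 HAI. Its share of the reads of the 21 known sequences of class III was 46.2%, 37.4% and 31.8%. With the summed miRNA reads, TMM factors or size factors as the scale, miR1425 was therefore lower at 12 and at 24 HAI than at 0 HAI, and the exact test called these decreases under all 3. The sequences with the most similar ratios among the 141 with at least 100 reads were OsmiR-17, OsmiR-202 and osa-miR162b, all within 0.04 on the log2 scale of both ratios.

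A predicted sequence lies on the other arm of the same hairpin. OsmiR-131, of 24 nt, has the exact locus of the miR1425 precursor and is shown because it can be set against the members' own hairpin above.
OsmiR-131: cAGCAGCAagaactggatcttaat

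A star strand is listed for OsmiR-131 but not for miR1425. In the fold of this hairpin 18 of the 21 bases of miR1425 pair with bases of OsmiR-131. It had 3, 5 and 15 reads, or 0.0640%, 0.0608% and 0.270% of the reads of both sequences (exact 95% intervals 0.0132% to 0.187%, 0.0197% to 0.142% and 0.151% to 0.445%). For every read of OsmiR-131 there were 1560, 1644 and 369.5 reads of miR1425 at 0, 12 and 24 HAI. Between 12 and 24 HAI the change of miR1425 was 0.225 times that of OsmiR-131 (limits 0.0639 to 0.651, adjusted p = 0.0187, Fisher's exact test). This test is 1 of 22 between a member and a related listed sequence, which were added after the counts had been seen and adjusted together.

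miR531c had the sharpest rise and fall of the 5. It had 42 reads at 0 HAI (2.19 TPM, interval 1.58 to 2.96), 304 at 12 HAI (13.6 TPM, 12.1 to 15.2) and 72 at 24 HAI (4.15 TPM, 3.25 to 5.22). The 12 HAI library stood apart from both others, and the interval at 24 HAI lay above that at 0 HAI in TPM. The ratio was 6.22 for 12 to 0 HAI (limits 4.50 to 8.81, adjusted p = 4.13e-41, exact conditional binomial test), and it was 0.305 for 24 to 12 HAI (0.232 to 0.395, adjusted p = 1.38e-22, same exact test). These directions held under all 6 scales.

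The 12 HAI level of miR531c was 3.28 times the next highest, that at 24 HAI (limits 2.53 to 4.305). This was the largest such peak of the 141 sequences with at least 100 reads, ahead of osa-miR1866 with 1.95, and rank 2 among all listed miRNAs. Among the 59 known sequences miR531c had the lowest ratio of 24 to 12 HAI. It moved from rank 94 of the listed miRNAs at 0 HAI to rank 60 at 12 HAI and rank 103 at 24 HAI. The level at 24 HAI was 1.90 times that at 0 HAI in TPM (1.28 to 2.84, adjusted p = 0.00235, exact test), just short of 2-fold. This last direction turned under the summed miRNA reads, TMM factors and size factors, where no difference was called (adjusted p = 0.544, 0.931 and 0.979, exact test). The nearest time course, that of osa-miR1866 with 37, 304 and 121 reads, still differed by 0.93 on the log2 scale.

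Apart from its own row, the seed of miR531c occurred in 2 predicted sequences from hairpins of the same length, 49 nt, and the 3 sequences are set side by side because they share their first 8 bases.
miR531c: cTCGCCGGggctgcgtgccgcc
OsmiR-150: cTCGCCGGcgcgcgcgtgcaccc
OsmiR-151: cTCGCCGGcacgtgcgtgcacc

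Over the 22 positions compared from the 5′ end, miR531c had the same base as OsmiR-150 at 13 and as OsmiR-151 at 12, while the 2 predicted sequences matched each other at 20. No run of 14 bases was shared between their precursors and that of miR531c. OsmiR-150 had 0, 10 and 13 reads at 0, 12 and 24 HAI, with a limit of 3 reads, or 0.156 TPM, for the count of 0, and OsmiR-151 had 3, 18 and 14. Neither had the drop of miR531c from 12 to 24 HAI. The TPM ratio was 1.67 for OsmiR-150 (limits 0.677 to 4.26) and 1.001 for OsmiR-151 (0.461 to 2.13), and that of miR531c was 0.182 and 0.305 times theirs (adjusted p = 0.00320 and 0.0187, Fisher's exact test).

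miR5795 changed little in TPM and its locus could not be fixed from its sequence. It had 52 reads at 0 HAI (2.71 TPM, interval 2.02 to 3.55), 93 at 12 HAI (4.16 TPM, 3.36 to 5.10) and 58 at 24 HAI (3.34 TPM, 2.54 to 4.32). The 12 HAI value was the highest, but its interval overlapped both others. The ratio of 12 to 0 HAI was 1.54 (limits 1.08 to 2.20, adjusted p = 0.0273, exact conditional binomial test). The call was lost with the reads of 18 to 30 nt and with the mapped reads without structural RNA as the scale (adjusted p = 0.0615 and 0.0753, same exact test), and the direction turned with the 3 scales set by the miRNA reads. The ratio was 1.23 for 24 to 0 HAI (0.834 to 1.83, adjusted p = 0.368, exact test) and 0.802 for 24 to 12 HAI (0.568 to 1.13, adjusted p = 0.372, exact test). On the 3 scales set by the miRNA reads miR5795 was lower at 24 than at 0 HAI (adjusted p = 0.00509, 0.0370 and 0.0383, exact test).

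The hairpin of miR5795 shared runs of 30 to 63 bases with 11 listed precursors of 4 predicted sequences, OsmiR-66, OsmiR-86, OsmiR-174 and OsmiR-196, on chromosomes 4 and 6 to 12. All were listed between genes, and 10 of the 11 had the shared run on the same strand, whereas that of OsmiR-174 was on the opposite strand. The 22 bases of miR5795 occurred exactly in 2 of them, and with 1 mismatch in 2 more, all precursors of OsmiR-196. The copy at chr4:11400626-11400763, minus strand, is shown with the bases of miR5795 in capitals, to be read against the miR5795 hairpin above.
OsMIR-196-1: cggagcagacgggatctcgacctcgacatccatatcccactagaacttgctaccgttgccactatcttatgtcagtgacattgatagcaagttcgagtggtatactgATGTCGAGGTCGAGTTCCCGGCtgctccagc

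The other exact copy lies at chr9:11105755-11105892 on the minus strand. Reads of miR5795 could therefore have come from any of these 3 listed loci. OsmiR-196 is on the 5p arm of the same hairpins, where 15 of its 24 bases pair with the copy of miR5795, and its last 15 bases are the first 15 of the miR5795 precursor. OsmiR-86 is on the 3p arm, and its last 12 bases are the first 12 of miR5795.
OsmiR-86: aGTGGGATactgatgtcgaggtcg
OsmiR-196: cGGAGCAGacgggatctcgacctc
miR5795: aTGTCGAGgtcgagttcccggc

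OsmiR-86 was the most abundant of these sequences, with 725, 1338 and 814 reads at 0, 12 and 24 HAI. Its TPM ratios, 1.59 for 12 to 0 HAI (limits 1.45 to 1.74), 1.24 for 24 to 0 HAI (1.12 to 1.37) and 0.783 for 24 to 12 HAI (0.716 to 0.855), lay next to those of miR5795. The ratio of miR5795 was 0.969 times that of OsmiR-86 for 12 to 0 HAI (limits 0.674 to 1.41) and 0.993 times for 24 to 0 HAI (0.662 to 1.49), so differences of up to about these limits were not detectable at this depth. OsmiR-86 was also among the 3 nearest time courses of miR5795 by the rule over all 141 sequences, with OsmiR-62 and osa-miR5150. OsmiR-196, with 59, 114 and 124 reads, did not fall after 12 HAI in TPM. Its ratio of 24 to 12 HAI was 1.40 (1.08 to 1.82), and that of miR5795 was 0.573 times as large, which missed the threshold after adjustment (adjusted p = 0.0507, Fisher's exact test). OsmiR-66 had 40, 44 and 51 reads and OsmiR-174 had 16, 34 and 32.

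miR6248, from the intronic hairpin with the highest MFEI of the known precursors, was scarce in the dry embryo. It had 7 reads at 0 HAI (0.365 TPM, interval 0.147 to 0.751), 33 at 12 HAI (1.48 TPM, 1.02 to 2.08) and 23 at 24 HAI (1.32 TPM, 0.840 to 1.99). Both imbibed libraries lay above the dry one without overlap in TPM, and their own intervals overlapped. The ratio of 12 to 0 HAI was 4.05 (limits 1.76 to 10.9, adjusted p = 0.000609, exact conditional binomial test) and that of 24 to 0 HAI was 3.63 (1.51 to 10.03, adjusted p = 0.00358, same exact test), both wide because of the 7 reads. The direction held under all 6 scales. The calls were lost on the 3 scales set by the miRNA reads, with adjusted p from the exact test of 0.170 to 0.261 for 12 to 0 HAI and 0.342 to 0.520 for 24 to 0 HAI.

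From 12 to 24 HAI the level of miR6248 was 0.897 times as large (limits 0.503 to 1.57, adjusted p = 0.905, exact test), so neither a fall nor a rise within these limits was detectable. No listed precursor shared a run of 14 bases, a seed or a position with it. Its nearest time courses were those of osa-miR1867, osa-miR166j and osa-miR166e, which differed by 0.36 to 0.38 on the log2 scale.

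miR440 was the least abundant over the 3 libraries together, with 52 reads. It had 17 reads at 0 HAI (0.885 TPM, interval 0.516 to 1.42), 24 at 12 HAI (1.07 TPM, 0.689 to 1.60) and 11 at 24 HAI (0.634 TPM, 0.316 to 1.13). The 3 intervals overlapped one another. No ratio passed the exact test in TPM, with 1.21 for 12 to 0 HAI (limits 0.625 to 2.41, adjusted p = 0.725), 0.716 for 24 to 0 HAI (0.303 to 1.62, adjusted p = 0.526) and 0.590 for 24 to 12 HAI (0.261 to 1.25, adjusted p = 0.353).

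In TPM it was the only member with a lower value at 24 than at 0 HAI, as were 24 of the listed miRNAs. Its ratio of 24 to 0 HAI was higher than that of only 5.19% of all sequences, and on the 3 scales set by the miRNA reads the decrease passed the threshold (adjusted p = 0.0120 to 0.0282, exact test). The direction of its 12 to 0 HAI ratio turned to lower on these scales, with no call. Its rank among the listed miRNAs moved from 140 to 175 and 221. OsmiR-8, with 49, 71 and 35 reads, had the nearest time course, 0.14 away on the log2 scale.

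The hairpin of miR440 also gave a predicted sequence on its other arm. The locus listed for OsmiR-93, chr11:9164827-9164900 on the minus strand, is 1 nt longer at each end, and its hairpin is shown with OsmiR-93 in capitals, to be compared with the miR440 hairpin above.
OsMIR-93: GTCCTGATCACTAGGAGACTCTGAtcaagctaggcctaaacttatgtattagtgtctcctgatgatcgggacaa

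In this hairpin 20 of the 23 bases of miR440 were paired, all of them with bases of OsmiR-93. OsmiR-93 had 14, 51 and 24 reads at 0, 12 and 24 HAI, so miR440 made up 54.8%, 32.0% and 31.4% of the reads of both (exact 95% intervals 36.0% to 72.7%, 21.7% to 43.8% and 16.9% to 49.3%). The predicted sequence was the more abundant arm at 12 and 24 HAI, and at 0 HAI neither arm led beyond the interval. The TPM ratio of OsmiR-93 was 3.13 for 12 to 0 HAI (limits 1.71 to 6.13), and that of miR440 was 0.388 times as large (0.150 to 0.997), which missed the threshold after adjustment (adjusted p = 0.130, Fisher's exact test).

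The 5 sequences were compared with one another by Fisher's exact test on their reads, which does not depend on the scale of a library. Of 30 tests, 10 pairs of sequences in 3 pairs of libraries, 8 passed an adjusted p of 0.05. Of these, 6 involved miR531c. Its ratio of 12 to 0 HAI was 4.05 times that of miR5795 (limits 2.46 to 6.64, adjusted p = 6.01e-08, Fisher's exact test) and 5.13 times that of miR440 (2.36 to 10.8, adjusted p = 8.00e-05, Fisher's exact test). The ratio of miR1425 was 0.243 times that of miR531c (0.171 to 0.336, adjusted p = 5.85e-22, Fisher's exact test). From 12 to 24 HAI, miR531c fell more than miR1425, miR5795 and miR6248. The ratio of miR1425 over miR531c was 2.85 (adjusted p = 9.20e-17, Fisher's exact test). That of miR531c was 0.380 over miR5795 and 0.340 over miR6248 (adjusted p = 5.04e-05 and 0.00243, Fisher's exact test). The fall of miR531c was not told apart from that of miR440 (0.517, limits 0.231 to 1.23, adjusted p = 0.240, Fisher's exact test).

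The remaining differences involved miR6248, whose 12 to 0 HAI ratio exceeded that of miR1425 (miR1425 over miR6248, 0.372, limits 0.139 to 0.857, adjusted p = 0.0487, Fisher's exact test) and whose 24 to 0 HAI ratio was 5.08 times that of miR440 (1.44 to 18.7, adjusted p = 0.0305, Fisher's exact test). miR531c and miR6248 were not told apart from 0 to 12 HAI, where the first had 1.54 times the ratio of the other (limits 0.538 to 3.83). No difference between miR1425 and miR5795 was detected in any pair of libraries, where the ratio of miR1425 over that of miR5795 was 0.982 for 12 to 0 HAI (0.684 to 1.40), 1.06 for 24 to 0 HAI (0.714 to 1.57) and 1.08 for 24 to 12 HAI (0.769 to 1.53).

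The members were also set against the summed reads of the 12 other known sequences of 21 to 23 nt in classes II and III, which had 14025, 29102 and 23269 reads. This sum was led by osa-miR535 and osa-miR166i, with 5913 and 5843 reads at 0 HAI and 12 to 0 HAI ratios of 1.79 and 1.37. The ratios of these 12 ran from 0.822 for osa-miR1862d to 85.99 for osa-miR1428e for 12 to 0 HAI, with a median of 3.13. For 24 to 0 HAI they ran from 1.08 to 117, again between osa-miR1862d and osa-miR1428e, with a median of 3.84, and for 24 to 12 HAI from 0.720 for osa-miR1320-3p to 3.86 for osa-miR1861g, with a median of 1.30. Of the 12, 10 were highest at 24 HAI in TPM and 2 at 12 HAI, against 0 and 5 of the members. For miR5795, miR6248 and miR440 the 12 HAI peak was within counting error.

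Of the 15 tests against this sum, 6 passed an adjusted p of 0.05. The ratio of miR1425 was 0.846 times that of the sum for 12 to 0 HAI, 0.714 times for 24 to 0 HAI and 0.843 times for 24 to 12 HAI (adjusted p = 7.21e-15, 3.88e-49 and 9.42e-18, Fisher's exact test). That of miR531c was 3.49 times the sum's for 12 to 0 HAI and 0.296 times for 24 to 12 HAI (adjusted p = 1.11e-17 and 9.27e-24, Fisher's exact test), and at 24 against 0 HAI it was 1.03 times as large (limits 0.696 to 1.55). That of miR440 was 0.390 times the sum's for 24 to 0 HAI (0.165 to 0.883, adjusted p = 0.0439, Fisher's exact test). miR6248 stood at 2.27 times the sum for 12 to 0 HAI (0.988 to 6.09, adjusted p = 0.0810, Fisher's exact test), which did not pass. miR5795 did not pass against this sum, with 0.672 for 24 to 0 HAI (adjusted p = 0.0810, Fisher's exact test). It passed there once osa-miR535, the most abundant of the 12, was left out, with 0.597 (adjusted p = 0.0189, Fisher's exact test). Against all other known sequences miR5795 stood at 0.530 for 24 to 0 HAI and 0.663 for 24 to 12 HAI. Both passed (adjusted p = 0.00257 and 0.0271, Fisher's exact test). Its 0.799 for 12 to 0 HAI did not (adjusted p = 0.260, Fisher's exact test).

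The scale of a library mattered for direction in 3 of the 5 members from 0 to 12 HAI and in 3 from 0 to 24 HAI, and in none from 12 to 24 HAI. Such turns were common in the whole list. In TPM 264 of the listed miRNAs were higher at 12 than at 0 HAI, against 122, 150 and 140 with the summed miRNA reads, TMM factors and size factors. For 24 to 0 HAI these counts were 265 against 126, 146 and 149. The median log2 ratio of all sequences was 0.84 for 12 to 0 HAI and 1.004 for 24 to 0 HAI in TPM. It moved by -0.94, -0.81 and -0.85 for 12 to 0 HAI and by -1.20, -1.002 and -0.99 for 24 to 0 HAI with the summed miRNA reads, TMM factors and size factors. The share of upward changes among all sequences past 2-fold was 94.96% for 12 to 0 HAI in TPM and 70.0% to 73.9% on these 3 scales, and 95.4% against 62.9% to 74.7% for 24 to 0 HAI. From 12 to 24 HAI the share was 72.7% in TPM and 56.0% to 64.8% on these 3 scales, and all 5 members were lower at 24 HAI on every scale. Relative to the median of all sequences, miR531c stood at 3.49 and miR6248 at 2.27 for 12 to 0 HAI, while miR5795 stood at 0.862, miR1425 at 0.846 and miR440 at 0.680.

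**Figure D4:**
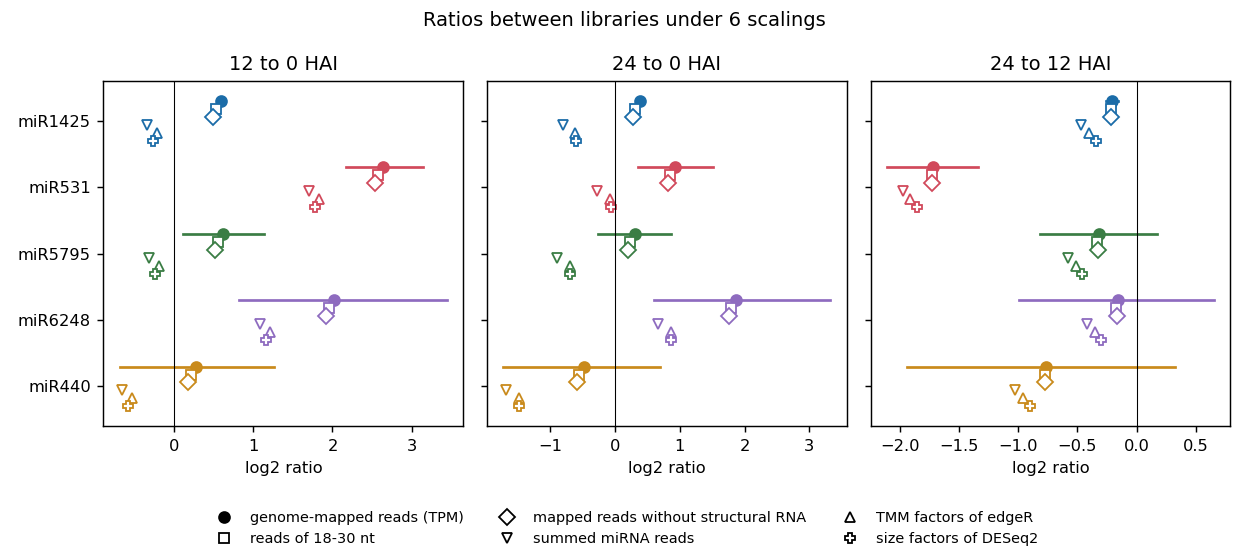
Log2 ratio of each member for 3 pairs of libraries under 6 scales, with the exact 95% limits of the TPM ratio as lines. miR531 stays above 0 for 12 to 0 HAI and below 0 for 24 to 12 HAI under all 6, miR6248 stays above 0 for both pairs with the dry embryo, and for those pairs miR1425 and miR5795 lie above 0 with the 3 scales of mapped or sequenced reads and below 0 with the 3 scales of miRNA reads.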

How the data were processed

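Small RNAs of 18–30 nt from rice embryos were sequenced at 0, 12 and 24 HAI, with 1 library per time point. Per the labels and the study's methods, the authors mapped the filtered reads to MSU 7.0 with Bowtie and matched them to miRBase with up to 2 mismatches. Of the table of known miRNAs, which holds its content in 2 identical copies, the first was read. The deposited counts are reads per mature sequence without normalization. The TPM values deposited by the authors equal these counts per 1000000 genome-mapped reads in all 407 rows, within a relative difference of 1e-06, although the methods name the clean reads. The MFE score of each precursor was computed by the authors.

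With 1 library per group, the quasi-likelihood test of edgeR has no residual degrees of freedom and was not used. TPM ratios were called past 2-fold, and reads were compared with two-sided exact conditional binomial tests, adjusted over all sequences that had a read in either library, and with two-sided Fisher's exact tests adjusted over 30, 15 and 22 tests. The mature sequences of 1 list are not replicates. The scales were genome-mapped reads, reads of 18–30 nt, mapped reads less those of structural RNA, that is tRNA, rRNA, snRNA and snoRNA, summed reads of all named sequences, and factors of edgeR 4.0.16 (TMM) and DESeq2 1.42.0. The reads of 18–30 nt and of structural RNA were taken from library totals that the study gives. The last 3 scales assume an unchanged total or that most sequences do not change, and there was no spike-in. Other alternatives were a 3-fold call, an exact limit past 2-fold, an adjusted p under 0.05, at least 10 reads, 1 read added, other comparators and the MFE of RNAfold 2.7.2. Python 3.11.15 with scipy 1.17.1 and R 4.3.3 were used. One predicted sequence without a name was left out.

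Besides the members, the text names sequences from the 3 with at least 100 reads that lie nearest to each member. Nearness was judged by the larger difference in the log2 ratios of 12 to 0 and 24 to 0 HAI. It also names listed sequences that overlap a member's locus, share its seed or share a run of at least 14 bases with its precursor. The lowest and highest of the comparators are named too. Chosen after their values were seen were osa-miR535, osa-miR166i and the peak of osa-miR1866. The members, lists and tests were chosen with earlier results of these data known. Genome copies beyond the listed precursors and targets were not analysed here.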

Additional observations from a re-analysis of the deposited data

How the results depend on the processing

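Ratios of the members kept their direction and their side of the threshold in 61 of 90 recomputations and turned in 18, all of them with the sum of the miRNA reads, TMM factors (edgeR) or size factors (DESeq2). In this order, the log2 ratio of 12 to 0 HAI was -0.34, -0.21 and -0.26 for miR1425, -0.31, -0.19 and -0.23 for miR5795, and -0.66, -0.53 and -0.57 for miR440, and that of 24 to 0 HAI was -0.81, -0.61 and -0.60 for miR1425, -0.27, -0.079 and -0.069 for miR531c, and -0.89, -0.70 and -0.69 for miR5795. The summed miRNA reads are larger for the imbibed libraries by construction, since the miRNA share of the mapped reads rose. TMM and size factors draw on the ratios of single sequences and were larger there too. The size factors were 0.650, 1.36 and 1.17 at 0, 12 and 24 HAI. On each of these 3 scales 2 members rather than 5 were highest at 12 HAI, 0 rather than 1 passed 2-fold upward from 0 to 24 HAI, and 1 rather than 0 passed it downward. Of all named sequences, 23.5%, 27.3% and 21.8% were highest at 12 HAI there, and 11.4%, 8.30% and 7.96% passed 2-fold downward from 0 to 24 HAI. With the summed miRNA reads 2 rather than 1 passed 2-fold downward from 12 to 24 HAI, beside 7.61% rather than 5.19% of all named sequences. The added one was miR440, with a log2 ratio of -1.02 that the exact test did not call (adjusted p = 0.168, exact conditional binomial test). Over all named sequences the share past 2-fold upward was 17.0%, 17.6% and 17.3% for 12 to 0 HAI on these scales, and 19.4%, 23.2% and 23.5% for 24 to 0 HAI.

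With an exact limit past 2-fold as the call, miR531c still passed upward from 0 to 12 HAI (4.50 to 8.81). The limits of miR6248 began below 2-fold for 12 to 0 HAI (1.76 to 10.9) and 24 to 0 HAI (1.51 to 10.03). Downward from 12 to 24 HAI, miR531c passed as before (0.232 to 0.395). The share of all sequences under this call was not computed, so no background is given beside it. With an adjusted p under 0.05 from the exact conditional binomial test, 4 members were called higher from 0 to 12 HAI. From 0 to 24 HAI 3 were called higher, and from 12 to 24 HAI 2 were called lower. The shares of all named sequences tested were 48.6%, 52.9% and 8.3%. A minimum of 10 reads and 1 added read left all counts of members as they were. The member ratios past 2-fold were past 3-fold too. For miR531c these were 6.22 (12 to 0 HAI) and 0.305 (24 to 12 HAI). For miR6248 they were 4.05 (12 to 0 HAI) and 3.63 (24 to 0 HAI). The share of all sequences past 3-fold was not computed. With a minimum of 10 reads and with 1 added read, the share past 2-fold upward was 37.6% and 34.6% for 12 to 0 HAI and 51.3% and 48.8% for 24 to 0 HAI. Downward from 12 to 24 HAI it was 4.38% and 4.15%. For miR531c, the 24 to 0 HAI ratio relative to like families, 1.03, turned to 0.814 against all other known sequences and to 0.918 without osa-miR535, with no difference called in any of these. No paired analysis was possible because each time point has 1 library. With 7 to 33 reads per library for miR6248 and 11 to 24 for miR440, changes of somewhat over 2-fold could also go uncalled, as the log2 ratios of 1.08 to 1.21 for miR6248 from 0 to 12 HAI on the scales set by the miRNA reads did, and no result has a replicate check.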
